A study of Mus musculus with 2 samples.

Results

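The 7 genes described here encode miRNAs that mark blood vessels and blood cells: Mir126a of the endothelium, Mir451a, Mir144 and Mir486 of red cells, and Mir223, Mir150 and Mir155 of leukocytes. They were chosen by gene name among the 1973 miRNA genes of the count tables, and all 7 were found. The tissue is neural tube, the embryonic precursor of brain and spinal cord, from B6NCrl mouse embryos at 13.5 days, with males and females pooled. The labels describe the embryos as healthy, name no transgene, deletion or treatment, and give 1 condition in 2 biological replicates that are separate tissue samples under the same donor entry. Small RNA below 30 nt was sequenced from total RNA. Same-strand counts on miRNA genes came to 7019469 in replicate 1 and 5738209 in replicate 2, and levels below are in CPM, the count scaled to these totals.

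MiRNAs are short RNAs cut from hairpin transcripts that guide Argonaute proteins to partly complementary mRNAs, mainly through the seed near the 5′ end. MiR-126 is made with the endothelial gene Egfl7 and supports vessel integrity and angiogenic signalling. MiR-451 and miR-144 come from a joint transcript driven by the erythroid factor Gata1, and miR-486 is made in red cell precursors and in muscle from the ankyrin gene Ank1. MiR-223 is a miRNA of granulocytes and other myeloid cells, miR-150 of mature lymphocytes, and miR-155 of activated lymphocytes and macrophages. Vessels, and the macrophages that become microglia, are known to enter the developing neural tube from outside the neural lineage.

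The mature sequences that were found show what separates these miRNAs from each other and from other genes in the counting. RefSeq (GRCm38.p6) gave 9 mature sequences for 6 of the 7 genes, and Mir486 had no entry. For Mir126a and Mir150 it gave the 3p sequence only, so their 5p sequences were not checked. The 9 sequences are written 5′ to 3′, with the seed, bases 2 to 8, in capitals.
miR-126a-3p: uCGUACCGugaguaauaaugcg
miR-451a: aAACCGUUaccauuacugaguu
miR-144-5p: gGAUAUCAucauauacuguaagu
miR-144-3p: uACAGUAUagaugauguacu
miR-223-5p: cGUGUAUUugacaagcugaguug
miR-223-3p: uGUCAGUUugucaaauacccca
miR-150-3p: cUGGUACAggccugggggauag
miR-155-5p: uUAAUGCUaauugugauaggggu
miR-155-3p: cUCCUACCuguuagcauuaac
The 9 seeds all differ, and none is shared with another of the 1679 distinct mature miRNAs of that table. No shared-seed group could therefore be formed. Searched at full length on both strands, 8 of the 9 sequences occur in no other gene's hairpin among 1005. The sequence of miR-451a matched only Mir451b, which is annotated on the opposite strand of the same place. Because both strands were searched, this match follows from the shared position. Mir126b, on the opposite strand at 26591363 to 26591420 of chromosome 2, covers miR-126a-3p (26591402 to 26591423) except for its last bases.

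Both hairpins of the red cell transcript are shown because they are built differently. Capitals mark the mature sequences within them.
Mir144: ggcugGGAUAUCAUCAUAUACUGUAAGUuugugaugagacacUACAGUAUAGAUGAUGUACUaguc
Mir451a: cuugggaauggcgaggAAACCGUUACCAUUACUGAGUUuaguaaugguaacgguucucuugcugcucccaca
In Mir144, 66 nt long, the mature arms take bases 6 to 28 and 43 to 62, one on each side of the hairpin. In Mir451a, 72 nt long, the single mature sequence takes bases 17 to 38. The longest stretch whose reverse complement also lies in the hairpin is 16 nt in Mir451a and 9 nt in Mir144. As background, the Mir451a hairpin is known to bypass Dicer and to be cut by Ago2.

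The genes lie at 6 places in the genome, given here on GRCm38 with the GENCODE M21 annotation. Mir126a (ENSMUSG00000065540) is on chromosome 2 at 26591357 to 26591429, plus strand, in an exon of 1 and in introns of the others of 9 overlapping transcripts of Egfl7, and within an intron of Gm20532. Mir144 (ENSMUSG00000065401; 78073005 to 78073070) and Mir451a (ENSMUSG00000070065; 78073170 to 78073241) follow each other on the plus strand of chromosome 11 with 99 nt between them, outside other same-strand genes. Mir486 (ENSMUSG00000070084; chromosome 8, 23142555 to 23142682) is intronic in all 15 overlapping Ank1 transcripts. Mir223 (ENSMUSG00000076066; chromosome X, 96242817 to 96242926) is exonic in the non-coding gene F630028O10Rik, and Mir155 (ENSMUSG00000065397; chromosome 16, 84714140 to 84714204) is exonic in the non-coding gene Mir155hg. Mir150 (ENSMUSG00000065495; chromosome 7, 45121757 to 45121821) overlaps no other annotated gene.

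The vessel miRNA stood far above every blood cell miRNA of the set. Mir126a had 120273 counts in replicate 1 and 91918 in replicate 2, or 17134 and 16019 CPM, a mean of 16576 ± 789 CPM (SD, n = 2). By mean level it was at rank 11, with rank 9 in replicate 1 and rank 11 in replicate 2. The share of Mir126a in the counts was 1.71% (exact 95% interval 1.70 to 1.72) and 1.60% (1.59 to 1.61). Ranks and shares leave out multimapping reads, so genes present in several copies need not rank by the level of their miRNA. The next of the set, Mir223, was at rank 171, and the 6 blood cell genes lay between ranks 171 and 291. In bulk tissue, fewer cells of a type and less RNA per cell cannot be told apart. Each read covers a mature miRNA of about the same length, so counts were not divided by gene length, and ligation efficiency, which differs between miRNAs, was not measured.

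**Figure D1:**
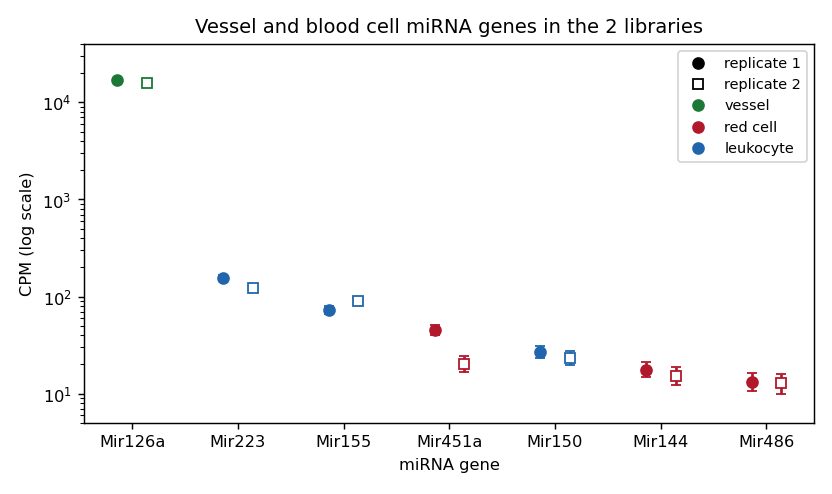
CPM on a log scale for each of the 7 genes in replicate 1 (filled circles) and replicate 2 (open squares), with exact 95% counting intervals as bars. Mir126a lies at 17134 and 16019 CPM, and the 6 blood cell genes lie between 12.7 and 156 CPM.

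The red cell genes were the lowest class in both libraries. Mir451a, a regulator of late erythroid maturation, had 317 counts in replicate 1 and 117 in replicate 2, which is 45.2 and 20.4 CPM (32.8 ± 17.5, SD, n = 2). The counting intervals of these levels, 40.3 to 50.4 and 16.9 to 24.4 CPM, did not overlap. Mir144, which acts in the same lineage, had 124 and 87 counts, or 17.7 and 15.2 CPM (16.4 ± 1.77). Mir486, a modulator of growth factor signalling in red cell precursors, had 93 and 73 counts, or 13.2 and 12.7 CPM (13.0 ± 0.37). Its mature sequences were not checked against other hairpins, and Mir3107 is annotated on its opposite strand. Multimapping reads lie outside these counts, and their part in the low level of Mir486 was not tested. For Mir144 and Mir486 the intervals of the libraries overlapped. The 3 genes together made up 0.00761% of the counts in replicate 1 and 0.00483% in replicate 2. Without Mir451a, an alternative chosen after the values were seen, the mean share of the class was 0.00294% in place of 0.00622%.

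The sum of the leukocyte genes stood between the vessel gene and the sum of the red cell genes, although Mir150 lay below the red cell gene Mir451a in replicate 1. Mir223, which restrains granulocyte production and activation, led with 1098 and 710 counts, or 156 and 124 CPM (140 ± 23.1, SD, n = 2). Mir155, which is processed from the BIC transcript of activated immune cells, had 510 and 514 counts, or 72.7 and 89.6 CPM (81.1 ± 12.0). Mir150, a repressor of the transcription factor Myb in lymphocytes, had 190 and 134 counts, or 27.1 and 23.4 CPM (25.2 ± 2.63). Mir223 was thus higher in replicate 1 and Mir155 higher in replicate 2, while the intervals of Mir150 overlapped. Summed, the class held 0.0256% and 0.0237% of the counts, a mean of 0.0246% ± 0.0014.

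Within each library, ratios between the classes do not depend on the total. Mir126a exceeded the summed red cell genes by a log2 ratio of 7.81 (exact 95% counting interval 7.69 to 7.94) in replicate 1 and 8.37 (8.20 to 8.55) in replicate 2. That is 225-fold and 331-fold, and a mean log2 ratio of 8.09 ± 0.39 (SD, n = 2). Against the summed leukocyte genes the log2 ratio was 6.06 (5.997 to 6.13) and 6.08 (6.003 to 6.16), or 66.9-fold and 67.7-fold. The vessel to leukocyte ratio thus nearly coincided in the libraries, and the vessel to red cell ratio did not. The nearly equal leukocyte ratio is that of the sum, since the fold of Mir126a over Mir155 went the other way, from 236 to 179, than that over Mir223. Against single genes the fold in favour of Mir126a ran from 109 and 129 for Mir223 to 1286 and 1251 for Mir486. The leukocyte sum exceeded the red cell sum 3.36-fold and 4.90-fold, a mean log2 ratio of 2.02 ± 0.38. Without Mir451a this mean was 3.06 ± 0.024 and the mean log2 ratio of Mir126a to the red cell genes 9.14 ± 0.036. All of these ratios are larger than their SD, but 2 libraries cannot give a two-sided sign-flip p below 0.5, so none was tested.

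**Figure D2:**
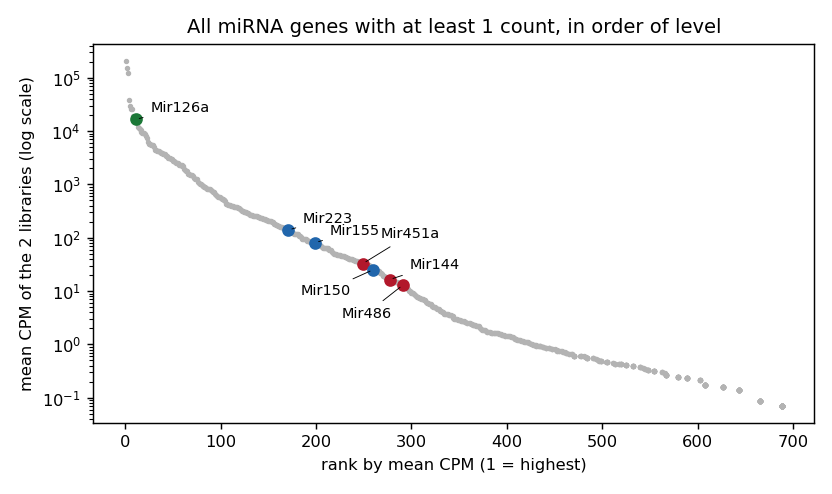
Mean CPM on a log scale against rank for the miRNA genes with at least 1 count, with the 7 genes in colour (green vessel, blue leukocyte, red for red cell). Mir126a sits at rank 11 at the upper left end, and the other 6 genes follow from rank 171 to rank 291.

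The order by mean level was Mir126a, Mir223, Mir155, Mir451a, Mir150, Mir144 and Mir486, and not every step in it exceeded the spread. Mir223 exceeded Mir155 2.15-fold in replicate 1 and 1.38-fold in replicate 2. The step from Mir155 to Mir451a was 1.61-fold and 4.38-fold. Mir451a and Mir150 did not differ beyond their spread, since Mir451a was 1.67-fold higher in replicate 1 and at 0.874 of Mir150 in replicate 2. Mir150 exceeded Mir144 1.53-fold and 1.54-fold. Between Mir144 and Mir486 the log2 ratio was 0.41 (0.015 to 0.82) and 0.25 (-0.21 to 0.72), so counting error alone covered this step in replicate 2.

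Genes with the most similar levels were looked up among 589 named genes with a count in both libraries, by distance on the plane of the 2 log2 CPM values. The nearest to Mir126a were Mir99b at a distance of 0.034 and Mir130a at 0.19. Nearest to Mir223 were Mir672 (0.11) and Mir217 (0.14), and to Mir155 Mir302b (0.079) and Mir877 (0.082). Mir451a had the most distant neighbours of the set, Mir208b at 0.18 and Mir702 at 0.33. The remaining neighbours were Mir7689 and Mir1955 for Mir144, Mir26a-2 and Mir1249 for Mir486, and Mir103-2 and Mir196a-1 for Mir150. With 2 libraries, this measure mainly orders genes by level.

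Mir451a had the largest difference between the libraries among the 7 genes. Log2 differences are replicate 2 minus replicate 1, with a pseudocount of 0.5. For Mir451a the difference was -1.14 (exact 95% counting interval -1.47 to -0.84), and 5 of the 306 genes with at least 100 counts summed had a larger absolute difference. The other genes ranged from -0.34 (-0.48 to -0.20) for Mir223 to 0.30 (0.12 to 0.48) for Mir155. Mir126a was at -0.097 (-0.11 to -0.085), Mir144 at -0.22 (-0.63 to 0.19), Mir486 at -0.056 (-0.52 to 0.40) and Mir150 at -0.21 (-0.54 to 0.11). Beyond 0.5 log2 units either way lay 1 of the 7 genes, against 8.50% of the 306 genes. Among the 142 genes with 100 to 2000 counts summed, the range of the blood cell genes, the share was 12.0%. This narrower range was not planned. The counting interval left out 0 for 4 of the 7, against 60.5% of the 306 genes. Both counts are close to what these background shares give for 7 genes. The median difference was -0.21 over the 7 genes, of which 1 was higher in replicate 2, and 0.039 over the 306 genes, of which 171 were higher. The common biological coefficient of variation of all genes, from edgeR, was 17.3%, which corresponds to an SD of 0.35 for such a log2 difference. The value of Mir451a lies beyond this SD, and those of the others within it. With 1 library on each side, none of these differences has a replicate check.

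**Figure D3:**
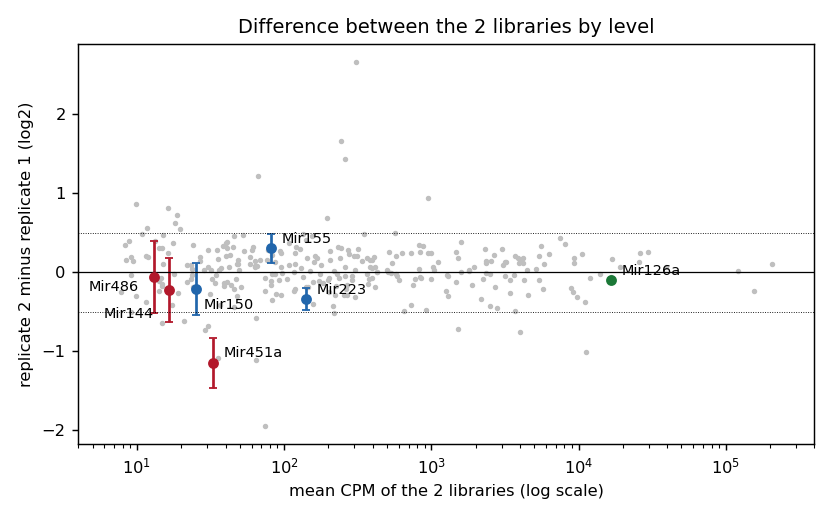
Log2 difference, replicate 2 minus replicate 1, against mean CPM on a log scale for the 306 genes with at least 100 counts summed (grey) and the 7 genes (coloured, with exact 95% counting intervals); dotted lines mark 0.5 log2 units. Mir451a lies at -1.14, and the other 6 lie between -0.34 and 0.30.

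The pair on the joint red cell transcript did not keep its ratio. Mir451a exceeded Mir144 2.55-fold in replicate 1, a log2 ratio of 1.35 (1.05 to 1.67), and 1.34-fold in replicate 2, at 0.43 (0.015 to 0.84). Fisher's exact test of the 4 counts, two-sided, gave p = 0.000306. This test compares these 2 libraries and covers counting error only. Mir144 and Mir486 kept closer, at 1.33-fold and 1.19-fold. The lower red cell sum of replicate 2 rests mainly on Mir451a, since the intervals of the differences of Mir144 and Mir486 included 0.

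Markers of other tissues also differed between the libraries. In the liver list, Mir122, the main miRNA of hepatocytes, had levels of 118 and 30.7 CPM, and the log2 difference was -1.95 (-2.19 to -1.71). The other 2 liver genes, Mir192 and Mir194-2, were at 0.068 (-0.14 to 0.27) and -0.16 (-0.41 to 0.089). The list summed to 226 and 136 CPM. The skeletal muscle list, with 3 of its 4 genes in the table, went the other way, with 119 and 378 CPM, nearly all from Mir206 of skeletal muscle, while Mir133b, its neighbour on chromosome 1, had 7 and 29 counts, and the muscle miRNA Mir1a-1 had 3 counts and 0. The mesenchyme and pericyte list of 5 genes summed to 5768 and 7126 CPM, with 4 of 5 genes higher in replicate 2. The part of these tissues in the difference of Mir451a was not tested. The neural list, with 11 of 12 genes in the table, summed to 9138 and 9291 CPM (0.921% ± 0.011 of the counts). In it, 4 genes were higher and 7 lower in replicate 2. Of the markers of the labelled tissue, Mir137 of neurons was at 5096 ± 101 CPM and Mir219a-2 of the oligodendrocyte lineage at 2351 ± 12.9 CPM. Mir338 of the same list was lower, at 221 ± 31.0 CPM. Mir124a, the miRNA of differentiated neurons, had 46 counts or fewer over both libraries in each of its 3 gene copies. Mir9-2 of neural progenitors had 12, while Mir9-3 reached 394 ± 29.7 CPM. Multimapping reads lie outside the gene counts, so the low counts of these gene copies need not give the level of the miRNA. The part of multimapping reads in them was not tested.

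**Figure D4:**
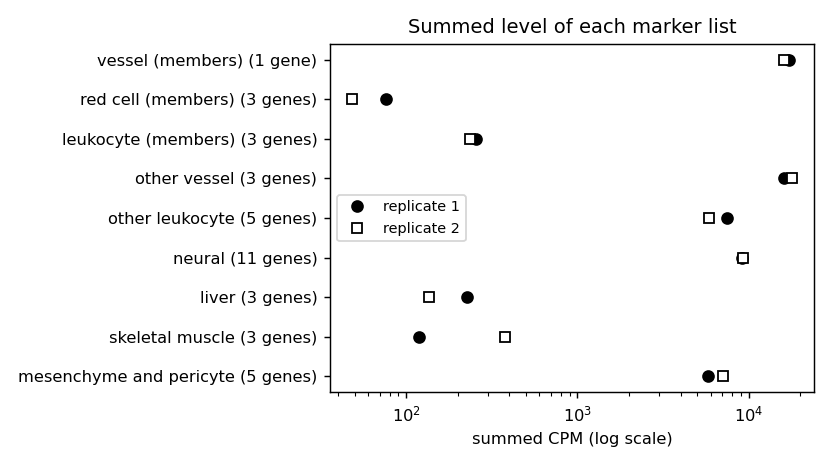
Summed CPM on a log scale of each marker list in replicate 1 (filled circles) and replicate 2 (open squares), with the number of genes in the table. The red cell genes lie lowest, at 76.1 and 48.3 CPM, and the vessel gene lies highest of the 3 classes, at 17134 and 16019 CPM.

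The level of Mir126a was compared with genes of other compartments. It exceeded Mir137 3.41-fold in replicate 1 and 3.10-fold in replicate 2, and Mir143, a miRNA of vascular smooth muscle and mesenchyme, 3.41-fold and 2.77-fold. Of the other miRNAs known from endothelium, Mir221 and Mir222 lay far below Mir126a and Mir130a close to it. Mir221 and Mir222, neighbours on chromosome X that limit the response to the growth factor receptor Kit, were at 105 ± 4.39 and 45.9 ± 4.79 CPM, and Mir126a exceeded Mir221 159-fold and 157-fold. Mir130a, which represses antiangiogenic homeobox genes and is made in many other cell types, was at 16872 ± 1400 CPM. Of these 3, Mir130a was higher in replicate 2 at 0.17 (0.16 to 0.18), and the intervals of Mir221 and Mir222 included 0.

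The remaining leukocyte list was led by genes that are not confined to blood cells. Mir342, in which nervous tissue is also known to be rich, was at 4983 and 2954 CPM, a log2 difference of -0.75 (-0.78 to -0.73). Mir21a, made in many dividing and inflamed tissues, was at 2468 and 2878 CPM. The inflammation-induced Mir146 (miR-146a) was at 31.6 and 32.2 CPM, and Mir146b at 2.42 and 1.22 CPM from 17 and 7 counts. Mir142b had 0 same-strand counts in both libraries, which allows up to 0.427 and 0.523 CPM. On its opposite strand, where M21 places Mir142, a miRNA of all blood lineages that was not analysed here as a gene of its own, lay 1233 and 984 counts. At 176 and 171 CPM (174 ± 2.95, SD, n = 2), this opposite-strand signal was higher than Mir223 in both libraries. Added to the leukocyte genes after its values were seen, it brought their share from 0.0246% to 0.0420% and the mean log2 ratio of Mir126a to them from 6.07 to 5.30.

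Opposite-strand counts were few for the 7 genes except Mir486. Opposite-strand counts were 5 and 6 for Mir126a, 12 and 2 for Mir486, 2 and 0 for Mir150, and 0 in both libraries for the other 4. With the unstranded column, the log2 difference of Mir486 between the libraries was -0.19 in place of -0.056, both within its counting interval. Mir126b, Mir451b and Mir3107 are annotated in M21 on the opposite strands of Mir126a, Mir451a and Mir486, and were not analysed here. Multimapping reads were 28.5% and 31.0% of all reads and stand on a line of their own, outside the gene counts. Their part in the levels of genes present in several copies was not tested.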

How the data were processed

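MicroRNA-seq libraries of 2 biological replicates were used. The authors deposited raw counts per miRNA gene on build mm10 with annotation M4, per the text notes deposited with the tables. For the aligner, nothing was given in the sources used here. Of the 3 count columns, the second was taken as same-strand and the third as opposite-strand, inferred from the values. Unmapped reads (17.4% and 12.2% of all reads), multimapping reads and reads in no gene (2.95% and 3.10%) were left out of the totals.

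Gene names came from GENCODE M21 (GRCm38, the assembly of mm10), matched on identifiers without version for 1894 of 1973 genes, and sequences from the RefSeq table. Exact binomial 95% intervals cover counting error only. Reads that carry no molecular identifiers are not independent molecules, so the intervals may be too narrow even for counting error. The replicates show the spread between these 2 libraries, which may be technical. TMM factors and an intercept-only common dispersion over the 371 genes that reached 10 counts in both libraries came from edgeR 4.0.16, and size factors from DESeq2 1.42.0 (R 4.3.3). Other steps used Python 3.11.15 and scipy 1.17.1. The intervals and the dispersion were tested on simulated data.

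Named genes were the 7 genes, the genes of the marker lists, the 2 nearest genes of each member and genes on the opposite strand of a member. The members and lists were chosen with earlier results of these data known. Alternatives were other totals, the unstranded column, pseudocounts, single genes for sums, and each replicate left out.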

Additional observations from a re-analysis of the deposited data

Results flagged for a closer look

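Counts in the opposite-strand column, which none of the main comparisons used, exceeded the 3 counts that a count of 0 allows for 4 of the vessel and blood cell genes. On the opposite strand of Mir142b lay 1233 counts in replicate 1 and 984 in replicate 2. For Mir126a there were 5 and 6, for Mir486 12 in replicate 1, and for Mir130a 6 in replicate 1.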

How the results depend on the processing

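The direction of every class ratio was kept under each alternative run, and 29 alternative values of the shares and ratios moved by less than the SD of the 2 libraries and 13 by more. Values with 1 replicate left out are not counted in this, since with 2 libraries they always lie within that SD. With Mir10a, the most abundant gene, left out of the total, the share of Mir126a was 2.08% and that of the leukocyte genes 0.0310%. With all reads of the table as the total, the shares were 0.868% for Mir126a, 0.00324% for the red cell genes and 0.0129% for the leukocyte genes; both changes follow from the totals. With the highest gene in place of each sum, the log2 ratio of Mir126a to Mir451a was 9.09 and to Mir223 6.90. Alternatives chosen after seeing the data were leaving out Mir451a and adding the opposite-strand counts of Mir142b to the leukocyte genes. The background share over genes with 100 to 2000 counts summed was not planned either. Without Mir451a the red cell share was 0.00294%. The log2 ratio was then 9.14 for Mir126a to red cell genes and 3.06 for leukocyte to red cell genes. With the Mir142b counts added, the leukocyte share was 0.0420%. The log2 ratio was then 5.30 for Mir126a to leukocyte genes and 2.79 for leukocyte to red cell genes. With 1 replicate left out, the red cell share was 0.00483% or 0.00761% and the Mir451a to Mir144 log2 ratio 0.43 or 1.35. The difference of Mir451a between libraries ranged from -1.18 to -1.14 over the scalings, strand and pseudocount, and 1 gene passed 0.5 log2 units in each. Without a count minimum, 43.4% of the 726 genes with at least 1 count in either library passed it. Adding the counts of genes annotated on the other strand of a hairpin was not run. No paired analysis was possible because the 2 libraries form 1 group.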
